A study of Mus musculus with 10 samples.

Results

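The small GTPase Ras is switched on when an exchange factor makes it release GDP and take up GTP, and switched off when a GTPase activator speeds up the hydrolysis of that GTP. Genes of both kinds were followed in the interscapular brown adipose tissue (iBAT) of mice: the 4 exchange factors Rasgrf1, Rasgrf2, Sos1 and Sos2 and the 5 GTPase activators Dab2ip, Rasal2, Rasa1, Rasa2 and Rasa3, which make up 9 of the 55414 genes counted. Rasgrf2 and Dab2ip were chosen by their difference between genotypes in an earlier edgeR fit of the same libraries, and the other 7 as members of the same families. The differences of Rasgrf2 and Dab2ip are therefore given below as a description without a test.

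RNAseq was done on iBAT of 10 male C57BL/6J mice fed normal chow and killed at 12 to 14 weeks of age, which are separate samples in the labels and are taken here as replicates. All carried RetSat flox/flox alleles, in which part of the gene of retinol saturase, an oxidoreductase of the endoplasmic reticulum, can be deleted by Cre recombinase. Counts per gene do not separate a shortened RetSat transcript from the full one. The 5 Cre- mice had no Cre, and the 5 Cre+ mice carried Ucp1-Cre, in which the promoter of uncoupling protein 1, the heat-producing protein of brown adipocytes, drives the recombinase. Cells without Ucp1 thus keep RetSat, and the deletion and the presence of Cre cannot be told apart. In bulk tissue, fewer cells of a type and less RNA per cell cannot be told apart either.

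Total counts ranged from 91903095 to 132499312 (median 118265192) in Cre- and from 96991071 to 110293494 (median 104642160) in Cre+ mice. Levels are given as CPM (reads of a gene relative to the size of its library) after TMM normalization, which scales the libraries to each other. RetSat fell from 185 ± 42.3 CPM (SD, n = 5) to 23.9 ± 8.63 CPM (SD, n = 5) (log2 fold change -2.95 with an SE of 0.24, adjusted p = 0.00402 by edgeR's quasi-likelihood test), with every Cre+ mouse (18.0 to 39.0 CPM) below every Cre- mouse (151 to 255 CPM). The brown adipocyte markers, from Ucp1 to Adipoq, summed to 15600 to 19200 CPM in Cre- mice and to 15500 to 19100 CPM in their Cre+ counterparts. Fabp4 gave the largest part, with means of 8089 and 8110 CPM. Of the 8 markers, 0 were called by edgeR (0.164% of all genes). An unadjusted p under 0.05 was found for 2, both higher in Cre+ (6.4% of all genes). These were Prdm16 (33.5 and 48.0 CPM, adjusted p = 0.249 by edgeR) and Plin1 (1288 and 1468 CPM, adjusted p = 0.304 by edgeR). Summed neuronal markers stayed at or below 0.498 CPM in all libraries. Skeletal muscle markers were high in Cre- replicate 2 (457 CPM) and Cre+ replicate 4 (225 CPM) and at most 17.3 CPM in the other 8 libraries. The same 2 libraries had the highest sums of immediate early genes (759 and 490 CPM, against 102 to 367 CPM in the other 8). Nr4a1 gave most of both sums (582 and 338 CPM), and the genes of this list did not move together. In Cre+ replicate 4, Atf3 was the highest (31.0 CPM) and Egr1 the lowest (4.37 CPM) of all 10 libraries.

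The exchange factors of the SOS type are held by adaptor proteins and brought to activated receptor tyrosine kinases, whereas those of the RasGRF type bind calmodulin and answer to calcium. RasGRF1 and RasGRF2 are best known from neurons. Among the activators, RASA1 (p120 RasGAP) docks on phosphorylated receptors, RASA2 and RASA3 bind membrane phosphoinositides, and DAB2IP and RASAL2 belong to the SynGAP group.

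The promoters of Rasgrf2 and Dab2ip, the genes on which the results turn, are printed below as RefSeq gives them for GRCm38.p6, from 250 bases before to 50 bases after the start, 5′ to 3′ on the strand of the gene. The build differs from GRCm39, on which the reads were counted. Rasgrf2 lies on the minus strand at chr13:92131779-92132078, and capitals mark the cAMP response element half-site TGACG, found on the strand shown 43 bases before the start. Of the 4 Dab2ip starts in the table, the one at chr2:35582590-35582889 on the plus strand has the most CG dinucleotides (29), and capitals mark a GC box (GGGGCGGGG on the other strand) that begins 104 bases before the start.
Rasgrf2 promoter: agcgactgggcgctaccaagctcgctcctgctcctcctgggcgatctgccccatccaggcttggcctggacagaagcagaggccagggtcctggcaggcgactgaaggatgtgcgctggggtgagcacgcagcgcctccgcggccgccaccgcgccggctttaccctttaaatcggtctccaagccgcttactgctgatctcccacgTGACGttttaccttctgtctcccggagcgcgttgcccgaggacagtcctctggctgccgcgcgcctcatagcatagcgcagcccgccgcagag
Dab2ip promoter: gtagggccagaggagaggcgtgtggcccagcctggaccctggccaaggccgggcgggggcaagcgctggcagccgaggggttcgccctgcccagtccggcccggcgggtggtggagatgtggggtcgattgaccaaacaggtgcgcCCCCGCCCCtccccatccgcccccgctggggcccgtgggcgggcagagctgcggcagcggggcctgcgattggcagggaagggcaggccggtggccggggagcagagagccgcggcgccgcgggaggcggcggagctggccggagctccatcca

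The promoter table held 12 promoters for the 9 genes, with a median of 28 CG dinucleotides, against 7 over all 32851 promoters, and a median G and C content of 67.5% against 52.7%. Motifs were searched on both strands. The half-site was present in 2 of the 12 promoters (Rasgrf1 and Rasgrf2) and in 20.8% of all promoters. The GC box was present in 6 of the 12, at 2 Dab2ip starts and in Rasa2, Rasa3, Rasgrf1 and Sos2, and in 11.4% of all promoters. The full cAMP response element TGACGTCA, of which the half-site is a part, the C/EBP-type motif TTNNGCAA and the heat shock element, in both of its 3-unit forms, were in none of the 12 and in 1.79%, 10.8% and 0.603% (each form) of all promoters. These matches describe the letters of these windows and say nothing about binding in iBAT, and gene counts do not separate the 4 Dab2ip starts.

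Of the 9 genes, 8 passed the filter on low counts and entered the fit over 17690 genes. Per exonic length, Sos2 was the most abundant in Cre- mice, with 5.98 ± 0.375 CPM per kb (SD, n = 5). Rasa1 (4.99 ± 0.116), Dab2ip (4.60 ± 0.439) and Rasa3 (4.46 ± 0.341 CPM per kb) followed. Sos1 had 3.19 ± 0.197, Rasgrf2 1.91 ± 0.184, Rasal2 1.599 ± 0.160 and Rasa2 0.613 ± 0.0728 CPM per kb. The ranges of Dab2ip (4.08 to 5.11) overlapped those of both Rasa1 and Rasa3, and the ranges of Rasgrf2 and Rasal2 (1.76 to 2.21 and 1.47 to 1.86 CPM per kb) overlapped as well, while the other neighbours in this order did not overlap. In Cre+ mice Dab2ip came first, with 6.91 ± 0.685 CPM per kb, though its range (5.85 to 7.72) overlapped that of Sos2 (5.18 to 6.51 CPM per kb). Rasgrf2 came after Rasal2 there, with 1.16 ± 0.153 against 1.25 ± 0.221 CPM per kb and overlapping ranges. Among the genes tested, the mean level per length of these 8 genes lay between the 34.9th percentile (Rasa2) and the 73.4th percentile (Sos2).

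**Figure D1:**
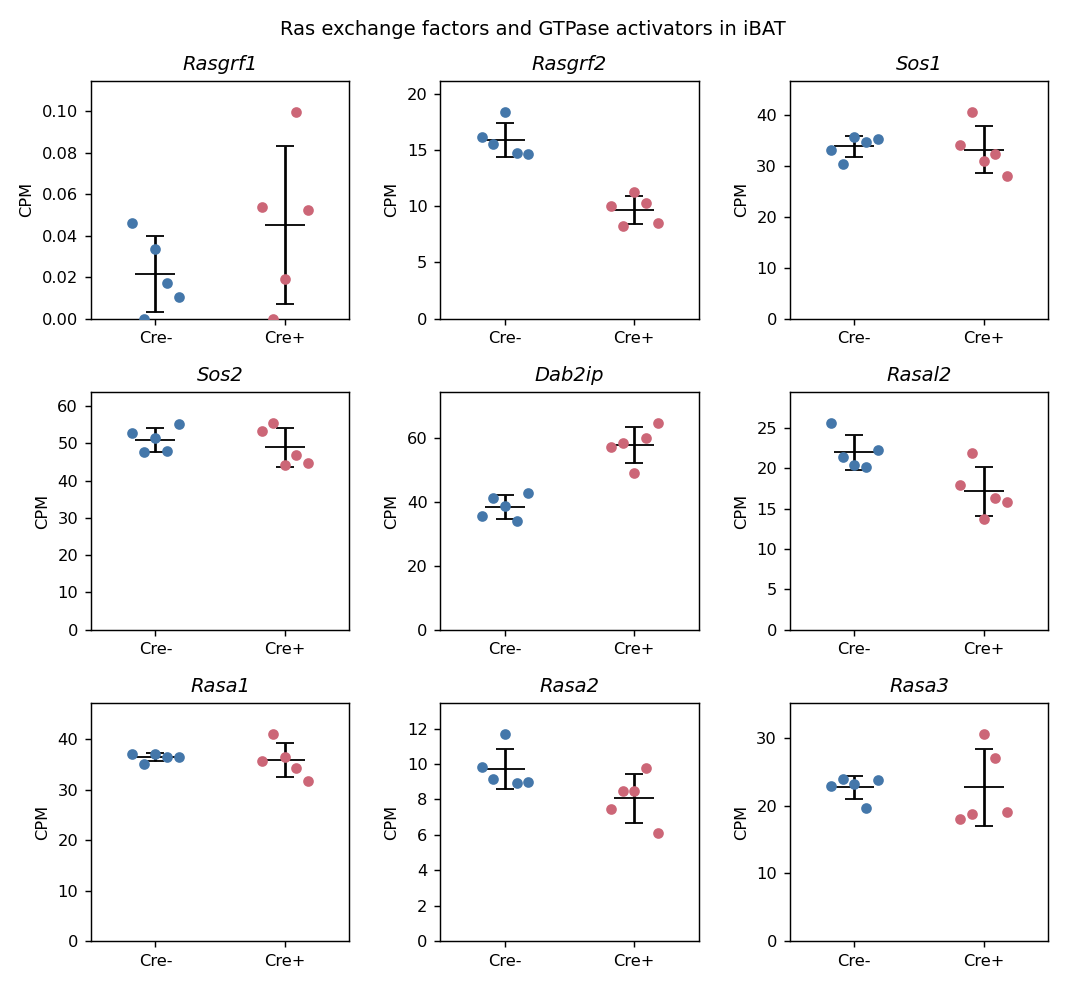
CPM of the 9 genes in each library (points), with the mean and SD of 5 Cre- and 5 Cre+ mice (horizontal bar and error bar). Each panel has its own linear axis from 0. In Rasgrf2 and Dab2ip the points of the genotypes do not overlap, while in the other 7 panels they do. Rasgrf2 and Dab2ip were chosen for their difference between genotypes. Over all genes tested, 2.67% had genotypes that did not overlap.

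Of the RasGRF pair, Rasgrf2 was the expressed member. Rasgrf2 (ENSMUSG00000021708.19, chr13:92028519-92268164 of GRCm39, minus strand, 28 merged exon blocks) had 16.15, 15.5, 18.4, 14.7 and 14.6 CPM in Cre- replicates 1 to 5. The Cre+ replicates 1 to 5 had 10.01, 8.23, 11.25, 10.3 and 8.49 CPM. The highest Cre+ mouse lay below the lowest Cre- mouse, and replicate 3 was the highest of both genotypes. The means were 15.9 ± 1.53 and 9.66 ± 1.27 CPM (SD, n = 5 each), and the fitted log2 fold change was -0.72 (SE 0.11), a ratio of 0.608. These values rest on 1365 to 2195 counts per Cre- and 867 to 1172 counts per Cre+ library. Over all 19 alternative settings, which leave out libraries or change the tool, scaling or filter, the log2 fold change of Rasgrf2 ranged from -0.78 to -0.66.

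Rasgrf1 (ENSMUSG00000032356.13, chr9:89791961-89909030, plus strand), its close relative, had 6, 0, 4, 2 and 1 counts in Cre- replicates 1 to 5 and 6, 0, 2, 10 and 6 counts in Cre+ replicates 1 to 5. It did not pass the filter and was not tested. Even its highest library had only 0.0997 CPM. No difference between genotypes was read from so few counts.

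The SOS genes showed no difference that passed the test. Sos1 (ENSMUSG00000024241.8, chr17:80701180-80787882, minus strand) had 33.2, 30.45, 35.6, 34.6 and 35.2 CPM in the Cre- and 34.1, 40.6, 30.9, 32.3 and 28.1 CPM in the Cre+ replicates 1 to 5. Both the highest and the lowest library were Cre+, and the Cre- mice lay between them. Its log2 fold change was -0.03 (SE 0.09, 95% interval -0.224 to 0.171), with an adjusted p of 0.937 by edgeR's quasi-likelihood test. Sos2 (ENSMUSG00000034801.14, chr12:69630536-69728626, minus strand) had 52.7, 47.7, 51.3, 47.9 and 55.1 CPM in the Cre- and 53.3, 55.4, 44.1, 47.0 and 44.6 CPM in the Cre+ replicates. Its genotypes overlapped too, and its log2 fold change was -0.06 (SE 0.08, 95% interval -0.229 to 0.111, adjusted p = 0.8 by edgeR). In both genes Cre+ replicate 2 was the highest Cre+ library.

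Dab2ip, whose product also acts as a scaffold in signalling from the TNF receptor and from VEGF receptors, was higher in Cre+ mice. Dab2ip (ENSMUSG00000026883.18, chr2:35448278-35621006 of GRCm39, plus strand, 22 merged exon blocks) had 35.5, 41.25, 38.7, 34.1 and 42.7 CPM in Cre- replicates 1 to 5. The Cre+ replicates 1 to 5 had 57.0, 58.4, 48.9, 60.1 and 64.6 CPM. Every Cre+ mouse was above every Cre- mouse, and replicate 5 was the highest of both genotypes. The means were 38.4 ± 3.67 and 57.8 ± 5.73 CPM (SD, n = 5 each), with a fitted log2 fold change of 0.59 (SE 0.09), a ratio of 1.5. Over the 19 alternatives the log2 fold change of Dab2ip ranged from 0.48, without 3 Cre+ libraries that carry an added letter in their identifier, to 0.64. Strand was not used in counting, and Dab2ip shares 347 exonic bases (4.15%) with the antisense gene Gm13446, which had 10 counts over all libraries.

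Of the remaining activators, Rasal2, the closest relative of Dab2ip in this set, had the largest difference. Rasal2 (ENSMUSG00000070565.12, chr1:156962752-157240165, minus strand) had 25.6, 21.35, 20.4, 20.2 and 22.3 CPM in the Cre- and 17.9, 21.9, 13.8, 16.3 and 15.8 CPM in the Cre+ replicates 1 to 5. Of the Cre+ mice, 4 lay below all Cre- mice and replicate 2 lay within their range. The log2 fold change was -0.36 (SE 0.12, 95% interval -0.608 to -0.11). It did not pass after adjustment over all genes, with an unadjusted p of 0.00815 and an adjusted p of 0.239 by edgeR, 0.138 by DESeq2 and 0.149 by limma voom. Rasal2 shares 244 exonic bases with 2810025M15Rik on the other strand, which ranged from 7.23 to 9.36 CPM in Cre- and from 8.32 to 10.8 CPM in Cre+ mice.

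Rasa2 (ENSMUSG00000032413.13, chr9:96421353-96513670, minus strand), the least abundant of the activators, had 9.84, 9.13, 11.7, 8.95 and 8.997 CPM in the Cre- and 7.46, 8.49, 8.45, 9.79 and 6.07 CPM in the Cre+ replicates. Cre+ replicate 4 lay within the Cre- range and the other 4 below it. Its log2 fold change was -0.27 (SE 0.13, 95% interval -0.551 to 0.007), with an adjusted p of 0.42 by edgeR. Rasa1 (ENSMUSG00000021549.15, chr13:85362899-85437249, minus strand) had 37.1, 35.1, 37.2, 36.6 and 36.6 CPM in the Cre- and 35.6, 41.0, 36.5, 34.4 and 31.8 CPM in the Cre+ replicates. With a within-group SD of 0.098 on the log2 scale, Rasa1 varied least of the 8 genes, and 10% of the genes tested had a smaller SD. Its log2 fold change was -0.03 (SE 0.07, 95% interval -0.178 to 0.126, adjusted p = 0.915 by edgeR).

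Rasa3 (ENSMUSG00000031453.17, chr8:13616948-13727603, minus strand) had 23.0, 23.99, 23.2, 19.7 and 23.8 CPM in the Cre- and 18.0, 18.8, 30.6, 27.2 and 19.1 CPM in the Cre+ replicates. Both genotypes had a mean of 22.7 CPM, but the Cre+ libraries were split, with replicates 3 and 4 above and replicates 1, 2 and 5 below every Cre- library. The SD was 1.74 CPM in Cre- mice and 5.75 CPM in Cre+. The log2 fold change was 0.00 (SE 0.14, 95% interval -0.309 to 0.309, adjusted p = 1.0 by edgeR). Replicates 1, 4 and 5 of Cre+ are those with an added letter in their identifier, which did not coincide with this split. Summed macrophage markers were also highest in Cre+ replicates 3 and 4 (74.3 and 85.9 CPM, against 50.9 to 54.1 CPM in the other Cre+ and 49.9 to 68.1 CPM in the Cre- libraries). Fibroblast markers (854 and 629 CPM, against 369 to 481 CPM) and B cell markers (2.41 and 2.52 CPM, against 1.46 to 1.98 CPM) split the Cre+ libraries in the same way. So did skeletal muscle markers (10.6 and 225 CPM, against 1.24 to 1.77 CPM). Neuronal markers did too (0.288 and 0.209 CPM, against 0.0612 to 0.162 CPM), but rested on few counts. Brown adipocyte markers split the Cre+ libraries the other way (18200 and 15500 CPM, against 18600 to 19100 CPM). T cell markers did not split them (1.38 and 2.18 CPM, against 1.79 to 2.22 CPM). Nor did endothelial markers (346 and 413 CPM, against 361 to 426 CPM). Smooth muscle and pericyte markers (577 and 554 CPM, against 506 to 578 CPM) and immediate early genes (110 and 490 CPM, against 102 to 194 CPM) overlapped too. Schwann cell markers had 164 and 103 CPM, against 76.5 to 103 CPM. Among Cre- libraries, fibroblast sums were highest in replicates 3 and 4 (713 and 715 CPM), with Rasa3 at 23.2 and 19.7 CPM. In Cre- mice, replicate 4 had the highest macrophage sum (68.1 CPM) and the lowest Rasa3. The part of these markers in the values of Rasa3 was not tested.

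**Figure D2:**
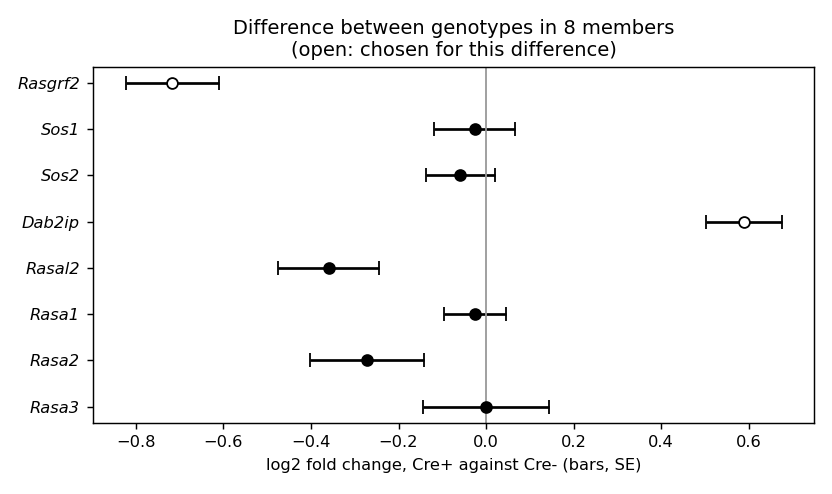
Log2 fold change of Cre+ against Cre- mice in the 8 genes that passed the filter (points), with its SE (bars) from the fit over all genes. Open points are Rasgrf2 (-0.72) and Dab2ip (0.59), which were chosen for this difference. The 6 filled points lie between -0.36 (Rasal2) and 0.00 (Rasa3).

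By edgeR, 0 of the 6 relatives tested were called at an adjusted p under 0.05, where 0.164% of all genes tested were (0.13% lower and 0.0339% higher in Cre+). DESeq2 and limma voom also called 0 of the 6, and 2.28% and 0.837% of all genes. One of the 6 (Rasal2) was lower at an unadjusted p under 0.05, where 12.3% of all genes were (5.95% lower and 6.4% higher). None of the 6 had genotypes that did not overlap, against 2.67% of all genes. The median log2 fold change of the 6 was -0.04, beside 0.00 for all genes. With 29 calls over all genes, the share called by edgeR was itself sensitive to single libraries, and 331 genes were called without Cre+ replicate 4, among them none of the 6.

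The make-up of each family per exonic length is given as a description, since the chosen genes are part of every sum and move the shares of the others. Rasgrf2 made up 17.2% ± 1.45 (SD, n = 5, range 15.2 to 19.0) of the summed exchange factors in Cre- and 11.7% ± 2.04 (SD, n = 5, range 8.72 to 14.3) in Cre+ mice. Sos2 made up 54.0% and 57.2%, Sos1 28.8% and 31.1%, and Rasgrf1 0.0172% and 0.0418%. The sum of the 4 exchange factors was 11.1 ± 0.562 and 10 ± 0.967 CPM per kb, with overlapping ranges (10.3 to 11.6 and 8.91 to 11.3). The SOS genes kept their ratio to each other, with 0.533 Sos1 per Sos2 in Cre- and 0.544 in Cre+ mice, while Rasgrf2 went from 0.318 to 0.201 per Sos2.

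Dab2ip made up 28.2% ± 1.72 (SD, n = 5, range 26.0 to 30.1) of the summed activators in Cre- and 38.4% ± 4.59 (SD, n = 5, range 31.8 to 44.5) in Cre+ mice. Rasa1 made up 30.7% and 27.2%, Rasa3 27.4% and 24.6%, Rasal2 9.84% and 6.93% and Rasa2 3.77% and 2.81%. Besides that of Dab2ip, the shares of Rasal2 (9.01 to 11.4% and 5.46 to 8.65%) and Rasa2 (3.34 to 4.47% and 2.21 to 3.25%) did not overlap between genotypes, although their CPM did. The sum of the 5 activators was 16.3 ± 0.752 and 18.0 ± 0.83 CPM per kb (ranges 15 to 17.0 and 17.0 to 19.0). Per Rasal2, Dab2ip had 2.87 in Cre- and 5.58 in Cre+ mice, the widest shift among the ratios computed.

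**Figure D3:**
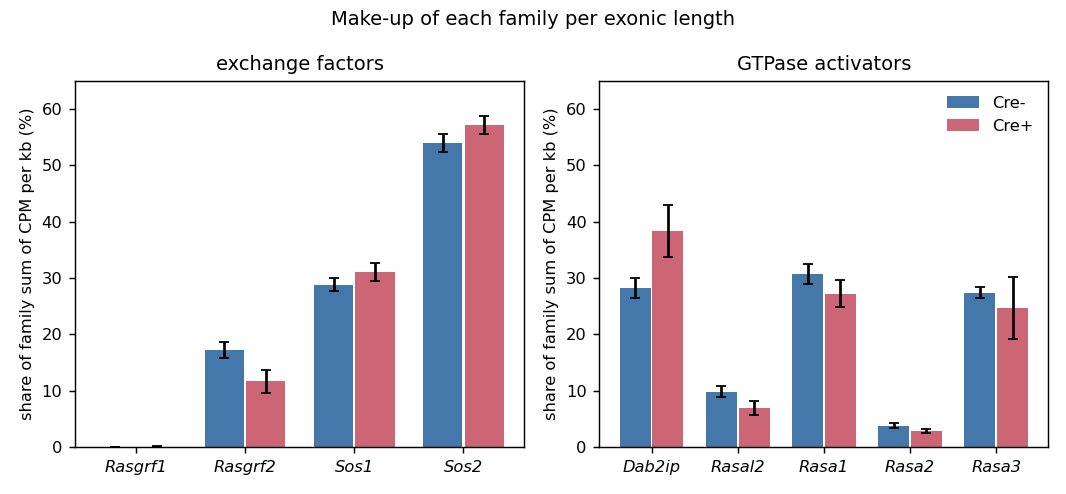
Share of each gene in the summed CPM per kb of its family (%), as the mean and SD of 5 Cre- and 5 Cre+ mice. Rasgrf2 has the smaller bar in Cre+ (11.7% against 17.2%) and Dab2ip the larger (38.4% against 28.2%).

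The genes whose centred log2 CPM over the 10 libraries came closest to Rasgrf2, among 11296 genes compared, were Inpp4b, Naa16, Rnf2, Mboat2 and Cacybp, with a root mean square difference of 0.114 to 0.179 (median of all genes 0.425). Inpp4b, which encodes a phosphoinositide 4-phosphatase, had 3.68 ± 0.436 CPM in Cre- mice and 2.21 ± 0.309 CPM in Cre+ (SD, n = 5 each). Cacybp had 77.7 ± 4.42 and 50.9 ± 4.9 CPM. Closest to Dab2ip were Armc5, S1pr5, Ksr1, Cracr2b and Pgap3, with differences of 0.132 to 0.149 (median of all genes 0.362). S1pr5, a receptor of sphingosine 1-phosphate, had 3.74 ± 0.325 and 5.58 ± 0.738 CPM, and Ksr1, a scaffold of the Raf, MEK and ERK kinases, 13.5 ± 1.47 and 17.4 ± 2.22 CPM. Because the genotype difference is part of the likeness, these genes share with Rasgrf2 and Dab2ip the direction in which they were chosen.

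Around the 9 genes, 87 other genes of Ras signalling in 11 lists were followed, of which 83 were tested. By edgeR 0 of the 83 were called, where 0.164% of all genes tested were. An unadjusted p under 0.05 was found in 15 of the 83 (10 higher and 5 lower in Cre+), beside 12.3% of all genes, and genotypes that did not overlap in 7, beside 2.67% of all genes. The median log2 fold change was 0.04 (0.00 over all genes), with 51 positive and 32 negative values, where 50.3% of all genes were positive. DESeq2 called 6 of the 83, beside 2.28% of all genes, with Rps6ka3 lower and Kdr, Pdgfra, Rapgef4, Rasal3 and Rasgrp3 higher. By limma voom 0 were called, beside 0.837% of all genes. No test compared the 83 with other genes.

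The other exchange factors, 4 of 4 tested, had log2 fold changes of 0.02 to 0.47, and the other activators, 4 tested, of 0.07 to 0.76. The value of Rasgrp2, near 0, changed sign in 4 alternatives. Rasgrp3, an exchange factor that binds diacylglycerol, had 14.8 ± 2.26 CPM in Cre- mice and 20.5 ± 2.50 CPM in Cre+ (SD, n = 5 each). The difference was 0.47 on the log2 scale (SE 0.12), with an adjusted p of 0.121 by edgeR. Rasal3, an activator known from blood cells, had 0.551 ± 0.134 and 0.933 ± 0.102 CPM, which differed by 0.76 on the log2 scale (SE 0.20, adjusted p = 0.151 by edgeR). Its genotypes did not overlap. Summed B cell markers were also low and ranged from 0.866 to 1.95 CPM in Cre- and from 1.46 to 2.52 CPM in Cre+ mice, and their part in the values of Rasal3 was not tested. Nf1, which encodes the activator neurofibromin, had 32.1 ± 3.09 and 38.2 ± 8.68 CPM, which differed by 0.25 on the log2 scale (SE 0.13, adjusted p = 0.469 by edgeR).

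The Ras GTPases themselves had log2 fold changes of -0.25 to 0.12, with 0 of 6 called by edgeR (0.164% of all genes) and 1 lower at an unadjusted p under 0.05 (5.95% of all genes). This was Rras2, with 29.5 ± 2.53 CPM in Cre- mice against 24.8 ± 1.97 CPM in Cre+ (SD, n = 5 each). It was at -0.25 on the log2 scale (SE 0.08), with an adjusted p of 0.238 by edgeR. Nras was at 41.8 ± 2.73 CPM in Cre- mice and at 37.9 ± 3.08 CPM in Cre+ (SD, n = 5 each), with an adjusted p of 0.454 by edgeR. Of the receptors, Kdr (VEGF receptor 2), which DAB2IP is known to bind, had 152 ± 10.01 and 191.5 ± 23.5 CPM, which differed by 0.34 on the log2 scale (SE 0.09). The adjusted p by edgeR was 0.136, and 0.0429 without Cre+ replicate 4. Kdr is made by endothelial cells, whose markers summed to 365 to 459 CPM in Cre- and to 346 to 426 CPM in Cre+ mice, and their part in the values of Kdr was not tested.

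Downstream of Ras, the kinase gene Rps6ka3 was at 76.5 ± 5.57 CPM in Cre- mice and at 62.2 ± 5.62 CPM in Cre+ (SD, n = 5 each). This was -0.30 on the log2 scale (SE 0.08), with an adjusted p of 0.142 by edgeR. Ksr1, of the same list of 11 kinases and scaffolds, went the other way, at 0.37 (SE 0.11, adjusted p = 0.189 by edgeR). The median of that list was 0.04. Among the listed ERK-responsive genes, which ERK signalling is known to induce, 0 of 8 tested were called by edgeR (0.164% of all genes). Their median was 0.37 (0.00 over all genes), with 6 positive and 2 negative values. Of these 8 genes, 1 was higher at an unadjusted p under 0.05 (6.4% of all genes). This was Phlda1 at 1.14 (SE 0.46, adjusted p = 0.364 by edgeR), whose value was -0.37 without the 3 Cre+ libraries with an added letter. The 9 ERK feedback inhibitors had a median of 0.27, with 5 positive and 4 negative values. Of the 9, 0 were called by edgeR (0.164% of all genes), and 2 were higher at an unadjusted p under 0.05 (6.4% of all genes). These were Spry2 at 0.46 (SE 0.18, adjusted p = 0.314) and Dusp5 at 0.54 (SE 0.25, adjusted p = 0.401, both by edgeR). Of the genes of DAB2IP's known partners, Map3k5 (the kinase ASK1) was at -0.22 on the log2 scale (SE 0.07, adjusted p = 0.239) and Akt1 at 0.29 (SE 0.10, adjusted p = 0.255, both by edgeR). The largest value of that list was 1.28 (SE 0.59, adjusted p = 0.429 by edgeR) for Pik3r1, a regulatory subunit gene of PI3-kinase, with 40.9 to 123 CPM in Cre- and 68.7 to 404 CPM in Cre+ mice, which overlap.

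**Figure D4:**
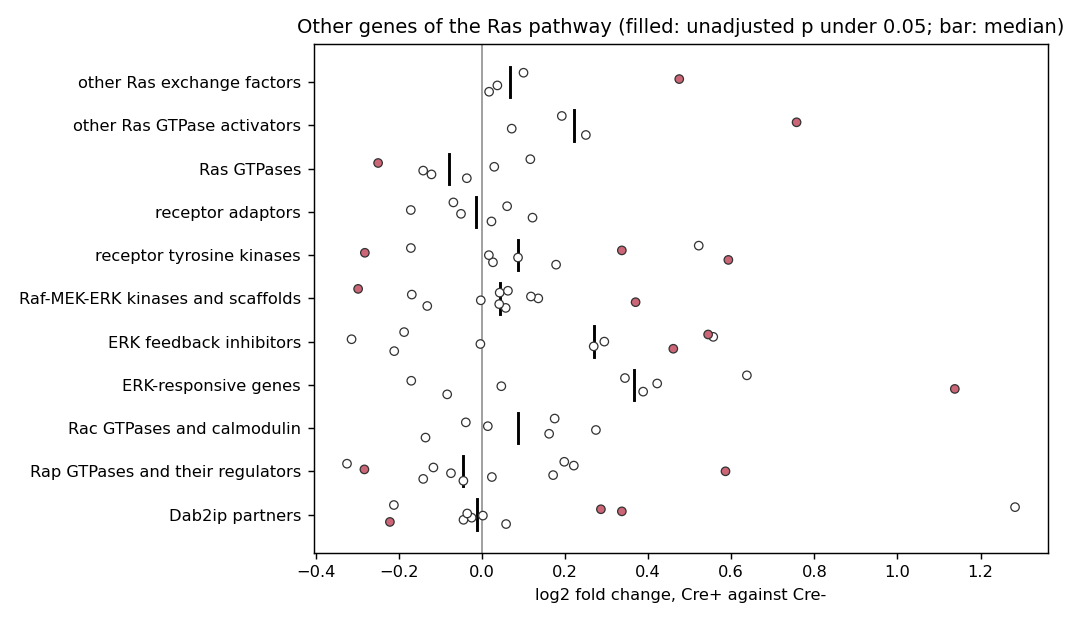
Log2 fold change of Cre+ against Cre- mice for the tested genes of 11 Ras pathway lists (points), with the median of each list (vertical bar). Filled points have an unadjusted p under 0.05 (12.3% of all genes tested). After adjustment over all genes by edgeR, 0 of the 83 genes passed, beside 0.164% of all genes.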

How the data were processed

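The deposited files hold raw read counts per gene of 10 iBAT libraries. The submitters' notes name Trimmomatic, STAR and featureCounts 2.0.1, with which the authors trimmed the reads, placed them on GRCm39 and made the deposited counts. For Trimmomatic and STAR, versions were not given in the sources used here. The file headers name GENCODE M28 and show that each mate was a count of its own, regardless of strand, and that only uniquely aligned reads entered. For RNA isolation the labels and the paper name different kits.

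The labels gave the groups. Counts were analysed with edgeR 4.0.16 in R 4.3.3, starting from 55414 genes, with TMM, filterByExpr (minimum count 10, minimum total 15) and robust quasi-likelihood F tests, with Benjamini-Hochberg adjustment over 17690 genes and 0.05 as the threshold of a call. The SE is the log2 fold change divided by the square root of F, and log2 CPM used a prior count of 2. CPM per kb used the exonic length in the files. Symbols matched 52081 genes. The alternatives were DESeq2 1.42.0, limma 3.58.1 voom with sample quality weights, no filter, at least 10 counts in every library, scaling by the size factors of DESeq2 or without mtDNA-encoded genes, a replicate block, each library left out, 3 lettered Cre+ libraries left out and the 2 muscle-rich libraries left out. The edgeR test was also run on simulated counts. These were drawn for each gene independently, so they do not check for effects of single libraries.

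The members, the pathway and marker lists and the alternatives were chosen with earlier results of these data known. Named genes were RetSat, the 9 members, up to 3 genes of each pathway list with the smallest p and any called, and the 5 genes most like Rasgrf2 and Dab2ip (mean log2 CPM of at least 0, predicted genes left out). Pik3r1 was named from outside this rule, after its values were seen. Values of some single list members are not reported here, and which of the other named genes the text describes was decided with their values known.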

Additional observations from a re-analysis of the deposited data

Results flagged for a closer look

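In each genotype, 40 genes were checked for a library far from the other 4, by the gap to its nearest neighbour over the whole range of the group. Of these 80 groups, 4 were past the critical value of 0.71, and about 1 in 20 would be by chance. Rasa1 had 35.1 CPM in Cre- replicate 2, below the other Cre- libraries (36.6 to 37.2 CPM). Rasa3 had 19.7 CPM in Cre- replicate 4, below the other Cre- libraries (23.0 to 23.99 CPM). RetSat had 39.0 CPM in Cre+ replicate 3, above the other Cre+ libraries (18.0 to 23.0 CPM) and below every Cre- library. Myc, a transcription factor gene of the ERK-responsive list, had 7.59 CPM in Cre+ replicate 4, above the other Cre+ libraries (2.14 to 3.63 CPM), in one of the 2 libraries with high muscle markers.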

How the results depend on the processing

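All 19 alternatives kept the direction of Sos2, Rasal2 and Rasa2, kept the call of RetSat (log2 fold change -3.20 to -2.64), and called 0 of the 6 tested relatives. The direction of Rasgrf2 and Dab2ip was kept as well. Both were chosen for this difference in the same libraries, so the alternatives could hardly reverse it. Over all genes, 29 were called, against 393 by DESeq2, 148 by limma voom, 92 with no filter on low counts and 289 without the 2 muscle-rich libraries. Leaving out 1 library gave 9 to 331 calls, namely 331 without Cre+ replicate 4, 9, 10, 11, 12, 13 and 15 without Cre+ 1, Cre+ 5, Cre- 5, Cre- 4, Cre- 1 and Cre- 3, and within 1.5 times the main count for the others. Of the pathway genes 0 were called by edgeR (0.164% of all genes) and 6 by DESeq2 (2.28% of all genes). With a library left out 0 to 1 were called (Kdr without Cre+ replicate 4). Values near 0 changed sign: Sos1 ranged from -0.108 to 0.028, Rasa1 from -0.078 to 0.015, Rasa3 from -0.134 to 0.072 and Rasgrp2 from -0.064 to 0.151 with a library left out. Without the 3 lettered libraries Sos1 was at 0.076, Rasa1 at 0.082, Rasa3 at 0.117, Rasgrp2 at -0.12, Phlda1 at -0.366, Calm3 at -0.027 and Sipa1 at -0.054. Rasa3 was at 0.001 by DESeq2, 0.002 with DESeq2 size factors, 0.003 without mtDNA-encoded genes and 0.0 with at least 10 counts in every library. The cause of these changes was not tested. Same-numbered samples shared only a number (r of their deviations -0.2 to 0.22, other pairs -0.25 to 0.22, with 5 of 10 samples correlating best with their own number), and with the replicate block 23 genes were called. Depth limits Rasgrf1, which had 13 and 24 counts in all.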
